A study of Mus musculus with 41 samples.

Results

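H3K27me3, a trimethyl mark on a lysine of histone H3, was compared between 2 kinds of mouse macrophage by overlaying their called CUT&Tag peaks on chromosomes 1 to 19. The marrow-derived list held 11649 peaks and the post-ischemia list 15554, and peaks that met by at least 1 bp were joined into 17836 merged regions. Of these, 3777 (21.2%, 95% Wilson interval 20.6 to 21.8) held peaks of the marrow-derived list only, 6825 (38.3%, 37.6 to 39.0) held peaks of the post-ischemia list only, and 7234 (40.6%, 39.8 to 41.3) held peaks of both. The intervals cover counting error over regions and nothing else. The 3 samples behind the lists were part of a series of 41.

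Bone marrow-derived macrophages (BMDM) were grown from marrow precursors of C57BL/6 mice for 7 days in DMEM with macrophage colony-stimulating factor (40 ng/ml) and 20% serum, and spent their last 24 hours in 10% serum. The study's methods do not give the age and sex of the marrow donors separately. Post-ischemia macrophages (PIM) came from the calf muscle of female C57BL/6 mice (substrain J in the study's methods) aged 8 to 12 weeks, 2 days after the femoral artery had been tied and excised, and were sorted as cells positive for CD45, CD11b, CD64 and the macrophage antigen encoded by Adgre1. Neither group carried a genetic change, and nuclei of both were tagged with the same antibody in buffers that held sodium butyrate. The BMDM list rested on 1 sample and the PIM list on 2 samples that the authors combined before calling peaks, so no spread between replicates could be had and no test was made. The groups also differed in culture, recruitment to damaged muscle and sorting, which cannot be told apart here. A peak list of bulk nuclei does not tell fewer marked cells from less of the mark in each cell.

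H3K27me3 is written by Polycomb repressive complex 2 and is found over genes that a cell keeps silent. In most cell types it lies broadly over the CpG islands of developmental regulators such as the Hox genes, and it can also cover long stretches of CpG-poor, inactive chromatin. In macrophages the transcription factor PU.1, encoded by Spi1, and the growth factor receptor Csf1r define the lineage. CUT&Tag measures the mark by tethering a transposase to the antibody, and the sequenced fragments show where the mark was.

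Promoters of genes with large peaks are shown as examples of the CpG content that the results below turn on. The lines below give 2 promoters called only in BMDM, 2 called only in PIM and 2 called in both, from 250 bases before to 50 bases after the start, as RefSeq gives them for GRCm38.p6, with every CpG in capitals. Each lay wholly inside a peak of the macrophage or macrophages named, and they were picked for the contrast, after their values were seen, from 6 promoters a class. These 6 held 0 to 8 CpG where called only in BMDM, 5 to 46 where called only in PIM and 9 to 43 where called in both. The calls are of promoters, and the peaks over Clec4f, Tpsg1 and Rhoc met peaks of the other list further along, so that the merged regions around them were shared.
Clec4f (chr6:83656067-83656366, - strand): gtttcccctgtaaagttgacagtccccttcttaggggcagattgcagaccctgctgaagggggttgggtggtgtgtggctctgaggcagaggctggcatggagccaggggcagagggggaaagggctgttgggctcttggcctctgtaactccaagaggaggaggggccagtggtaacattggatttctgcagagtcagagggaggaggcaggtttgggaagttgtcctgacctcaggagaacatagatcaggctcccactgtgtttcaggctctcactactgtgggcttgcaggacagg
Tpsg1 (chr17:25369023-25369322, + strand): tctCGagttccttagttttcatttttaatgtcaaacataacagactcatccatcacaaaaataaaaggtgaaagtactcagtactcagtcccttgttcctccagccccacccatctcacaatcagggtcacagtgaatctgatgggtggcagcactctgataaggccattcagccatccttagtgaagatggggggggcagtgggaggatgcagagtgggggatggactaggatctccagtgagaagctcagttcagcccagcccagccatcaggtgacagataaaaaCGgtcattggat
Id3 (chr4:136143572-136143871, + strand): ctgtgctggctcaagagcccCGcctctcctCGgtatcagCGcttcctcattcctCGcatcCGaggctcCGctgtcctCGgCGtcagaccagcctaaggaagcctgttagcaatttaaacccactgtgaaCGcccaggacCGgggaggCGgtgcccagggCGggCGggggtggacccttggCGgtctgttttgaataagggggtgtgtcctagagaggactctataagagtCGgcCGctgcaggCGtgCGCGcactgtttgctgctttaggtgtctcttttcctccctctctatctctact
Rhoc (chr3:104788784-104789083, + strand): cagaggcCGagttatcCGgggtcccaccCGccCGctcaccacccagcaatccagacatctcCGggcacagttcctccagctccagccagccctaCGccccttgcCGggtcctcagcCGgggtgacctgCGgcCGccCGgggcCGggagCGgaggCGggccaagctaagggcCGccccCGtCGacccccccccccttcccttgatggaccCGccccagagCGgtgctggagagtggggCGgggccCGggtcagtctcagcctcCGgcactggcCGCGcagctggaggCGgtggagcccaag
Lhx1 (chr11:84525485-84525784, - strand): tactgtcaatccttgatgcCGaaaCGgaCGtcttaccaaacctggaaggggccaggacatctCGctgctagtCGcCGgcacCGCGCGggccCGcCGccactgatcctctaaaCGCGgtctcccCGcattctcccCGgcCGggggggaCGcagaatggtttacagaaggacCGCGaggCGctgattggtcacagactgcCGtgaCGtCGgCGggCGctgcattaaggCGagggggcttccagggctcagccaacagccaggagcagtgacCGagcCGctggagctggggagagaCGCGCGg
Hoxc4 (chr15:103034145-103034444, + strand): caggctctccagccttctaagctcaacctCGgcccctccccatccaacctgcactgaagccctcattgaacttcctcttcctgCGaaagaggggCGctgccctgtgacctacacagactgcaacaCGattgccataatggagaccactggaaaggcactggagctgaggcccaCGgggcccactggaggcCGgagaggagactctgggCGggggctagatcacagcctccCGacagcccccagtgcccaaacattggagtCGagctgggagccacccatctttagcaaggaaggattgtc
The 300 bases of Clec4f, a lectin of liver macrophages, held no CpG (0), and those of Tpsg1, a mast cell tryptase, held 2. The promoters of Id3, an inhibitor of helix-loop-helix factors, and Rhoc, a small GTPase, held 19 and 25. Lhx1, a LIM homeodomain factor of kidney and head development, had 31 and Hoxc4 had 9. Over all genes with a RefSeq promoter, the median was 4 CpG in the 260 promoters called only in BMDM, 17 in the 1395 called only in PIM, 17 in the 2735 called in both and 15 in all 15703, with median GC contents of 51.7%, 60.0%, 61.7% and 57.3%.

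The lists covered nearly equal amounts of the genome. BMDM peaks covered 98.0 Mb (3.98% of chromosomes 1 to 19) with a median width of 5241 bp, and PIM peaks 101 Mb (4.11%) with a median width of 4285.5 bp. Total signal, the fragment coverage summed over a peak, was not scaled to depth and its lowest value was 26136 in the BMDM list and 15048 in the PIM list. The study gives read numbers per sample, which were not used here, and the lists themselves hold no depth. A signal was therefore described by its percentile in its own list (100 for the largest peak). Totals of both lists were compared, as deposited, to name or leave out PIM peaks below the lowest BMDM value. Where totals of both lists are printed together elsewhere, a difference between them is not read as a difference in the mark. The active-mark lists were checked at markers of macrophages and of other cells. All 10 macrophage markers fixed for this purpose (among them Csf1r, Spi1, Adgre1 and Fcgr1) had H3K18la and H3K27ac peaks in both macrophages and H3K4me3 in PIM, and none met an H3K27me3 peak in either list. None of 8 skeletal muscle, 4 fibroblast, 4 T cell and 4 B cell markers had H3K18la or H3K27ac in either macrophage, while 3 of 4 endothelial markers had H3K27ac in BMDM and 2 of 4 in PIM, and 1 of 4 neutrophil markers had it in BMDM and 2 of 4 in PIM. H3K18la was at 2 of 4 endothelial markers in each, and at 2 of 4 neutrophil markers in BMDM and 3 of 4 in PIM. H3K4me3 of PIM was at 3 of 4 endothelial, 2 of 4 fibroblast, 2 of 4 neutrophil and 1 each of the muscle, T cell and B cell markers. The longer gene lists used below were not free of H3K27ac, which was at 2 of 18 fibroblast, 2 of 22 T cell and NK cell and 3 of 16 B cell genes in BMDM, and at 1, 2 and 3 of them in PIM. The part of other cells in the PIM list was not tested beyond these markers.

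Peaks of high total signal mostly met a peak of the other macrophage, and those of low total signal less often. BMDM peaks met a PIM peak in 7872 of 11649 cases (67.6%, 66.7 to 68.4), and PIM peaks met a BMDM peak in 8729 of 15554 (56.1%, 55.3 to 56.9). When each list was cut into 5 parts by total signal, the share of BMDM peaks with a PIM partner went from 41.4% in the lowest part to 96.9% in the highest. The share of PIM peaks with a BMDM partner went from 30.7% to 93.8% over the same steps. Width rose along with signal, from a median of 2862 bp in the lowest to 17193 bp in the highest part of the BMDM list and from 2383 to 12177 bp in the PIM list, and a wider peak meets a partner by 1 bp more easily. The part of width in these shares was not tested. The bases called in both lists came to 61.5 Mb, 62.7% of the BMDM bases and 60.7% of the PIM bases, a Jaccard index of 0.446. With the 5000 peaks of largest total signal from each list the Jaccard index was 0.455.

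**Figure D1:**
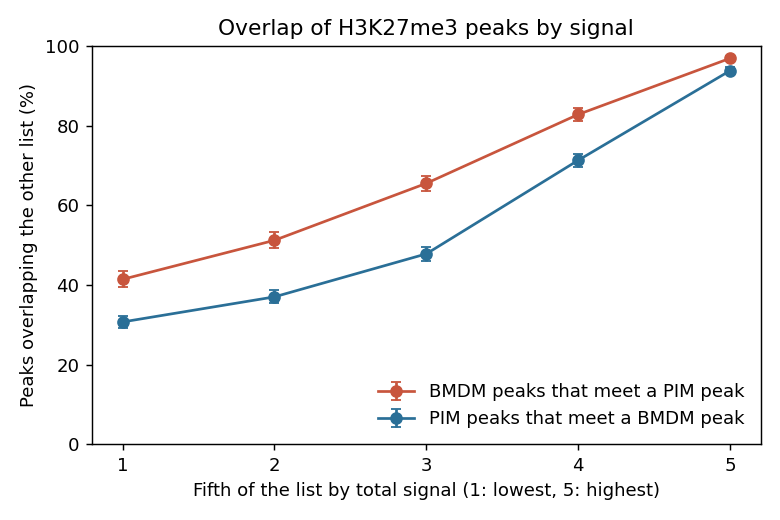
Percentage of H3K27me3 peaks that met a peak of the other macrophage by at least 1 bp, plotted against the fifth of the list by total signal, for BMDM and PIM peaks; bars are 95% Wilson intervals over peaks. Both lines climb at every step, from 41.4% to 96.9% for BMDM and from 30.7% to 93.8% for PIM.

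PIM-only regions outnumbered BMDM-only regions with all peaks, and the order turned without the low peaks. The 5000 largest peaks of each list gave 6295 regions, of which 1656 (26.3%) were BMDM-only, 1484 (23.6%) PIM-only and 3155 (50.1%) shared. This changes the number of peaks and the lowest signal together. Leaving out only the PIM peaks below the lowest BMDM total signal gave 33.2% BMDM-only and 23.7% PIM-only regions, and equal bases in both lists 23.8% and 34.6%. The last peak kept had a total signal of 88860 in BMDM and 88596 in PIM, and the first left out had 88833 and 88567. At the border between the classes, the smallest overlap of a shared region was 12 bp, and 7 shared regions overlapped by less than 100 bp. The nearest BMDM-only region lay 5 bp from a PIM peak and the nearest PIM-only region 1 bp from a BMDM peak. BMDM-only regions were closer to the other list, with 21.6% within 5000 bp of a PIM peak and a median distance of 14849 bp. Of PIM-only regions 15.4% lay within 5000 bp of a BMDM peak, and the median distance was 46362 bp. The PIM list held more peaks than the BMDM list (15554 against 11649), which brings any region nearer to one of them. The part of list size in these distances was not tested. The split also varied along the genome, with the BMDM-only share between 11.7% on chromosome 3 and 31.1% on chromosome 15, and the PIM-only share between 26.8% on chromosome 11 and 53.1% on chromosome 3.

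The exclusive regions were narrower than the shared ones and differed from each other in what they covered. Part of the width is set by the rule, since a shared region is the union of at least 2 peaks and a wide peak meets a partner, a promoter or an island more easily. Shared regions spanned 92.6 Mb, of which 61.5 Mb were called in both lists. Shared regions had a median width of 8860.5 bp, BMDM-only regions 3840 bp and PIM-only regions 3151 bp. A promoter, taken as 2000 bp on each side of any annotated transcript start, was met by 63.1% of shared, 39.4% of PIM-only and 22.9% of BMDM-only regions. The BMDM-only share was thus lower by 16.4 points than the PIM-only share (difference -16.4, 95% interval -18.2 to -14.7). BMDM-only regions had the larger median width here, and the smaller one (3915.5 against 4550 bp) when PIM peaks below the lowest BMDM total signal were left out, where the difference was -27.1 points. With the 5000 largest peaks of each list the difference was -34.3 points (-37.5 to -31.0), and 39.8% of BMDM-only and 74.1% of PIM-only regions met a promoter. Those classes hold other members, since a site whose partner fell below the limit became exclusive. Of the genes then called in BMDM only, 240 of 358 had been called in both with all peaks, and of those in PIM only 500 of 1024. Outside promoters, 32.3% of BMDM-only regions lay in a protein-coding gene and 44.7% between genes. For PIM-only regions these shares were 20.4% and 40.2%, and for shared regions 13.4% and 23.5%. Promoter windows together make up 11.1% of the bases of chromosomes 1 to 19. That is a share of bases and no background for shares of regions, which meet a window by 1 bp.

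CpG islands, stretches in which CpG has been kept, were nearly absent from the BMDM-only regions. An island was met by 49 of 3777 BMDM-only regions (1.3%, 0.983 to 1.71), by 1103 of 6825 PIM-only regions (16.2%, 15.3 to 17.1) and by 2973 of 7234 shared regions (41.1%, 40 to 42.2). With the 5000 largest peaks the shares were 7.13%, 49.8% and 69.3% in the same order, so the order of the classes was kept. The classes differed in CpG and hardly in GC content. The median ratio of observed to expected CpG was 0.177 in BMDM-only, 0.223 in PIM-only and 0.247 in shared regions, against 0.194 over the whole of these chromosomes, while their median GC contents were 46.7%, 46.0% and 47.8%. Away from promoters the CpG ratios were closer to each other, at 0.175, 0.197 and 0.203.

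**Figure D2:**
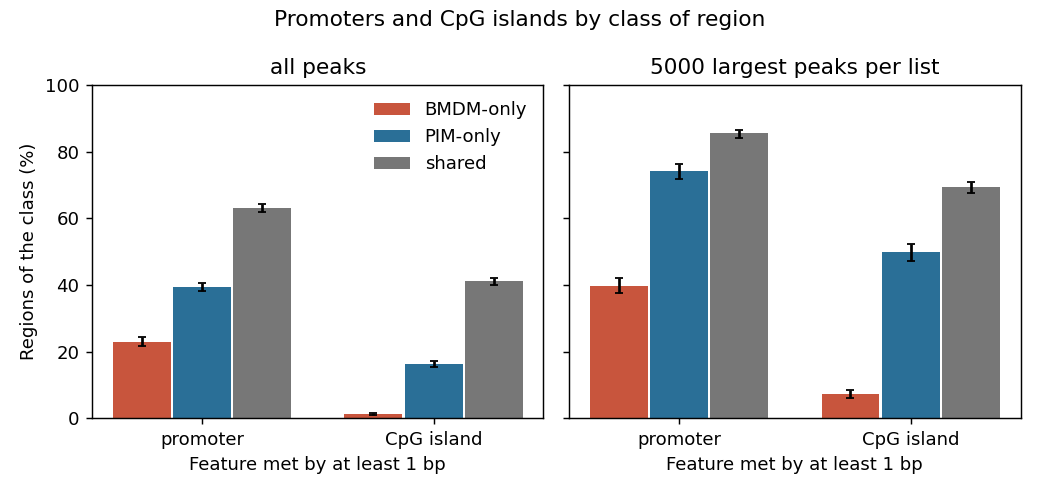
Percentage of BMDM-only, PIM-only and shared regions that met a promoter or a CpG island, for all peaks (left) and for the 5000 largest peaks of each list (right); bars start at 0 and error bars are 95% Wilson intervals over regions. In both panels the BMDM-only bar is the lowest and the shared bar the highest, with islands at 1.3%, 16.2% and 41.1% of regions for all peaks.

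The classes were then set beside the other marks of the same cells. BMDM-only regions held almost none of the active marks. H3K27ac of BMDM covered 0.0243% of their bases against 1.31% of the genome, a ratio of 0.0185, and the ratios for BMDM H3K18la, PIM H3K27ac, PIM H3K18la and PIM H3K4me3 were 0.0894, 0.138, 0.211 and 0.134. PIM-only regions were on the other side of 1 for all 5 lists, with 2.47 for PIM H3K27ac, 2.82 for PIM H3K18la, 4.12 for PIM H3K4me3, 2.50 for BMDM H3K18la and 1.86 for BMDM H3K27ac. Shared regions had 0.591, 0.806, 3.16, 0.543 and 0.279 in the same order, so only PIM H3K4me3 was above 1 there. By regions, PIM H3K4me3 met 29.7% of shared and 21.1% of PIM-only regions. PIM H3K18la (11.8% and 16.3%) and PIM H3K27ac (7.92% and 10.7%) had the opposite order. Of the 6825 PIM-only regions, 1926 (28.2%) met at least 1 active peak of PIM. Those met a CpG island in 36.7% of cases, and the 4899 without an active peak in 8.08%. Among BMDM-only regions, 25 of 3777 (0.662%) met an active peak of BMDM, and the 3682 that met no active peak of PIM met an island in 0.951% of cases. Whether open chromatin contributed fragments to the PIM list was not tested. H3K4me3 was not compared for BMDM, for which no such list was analysed here.

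H3K27me3 lists of other cells in the series did not treat the exclusive regions alike. In myoblasts the mark covered 17.9% of BMDM-only bases and 7.04% of PIM-only bases, 8.18 and 3.22 times its share of the genome. In myotubes it covered 42.5% of BMDM-only bases, as much as of shared bases (42.4%), and 17.9% of PIM-only bases. Gastrocnemius muscle (30.5% against 23.2%) and embryonic stem cells in 2i medium (29.4% against 19.2%) also covered more of the BMDM-only than of the PIM-only bases. Embryonic stem cells in serum showed the opposite order, with 9.11% of BMDM-only and 18.4% of PIM-only bases, and 34.6% of shared bases.

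**Figure D3:**
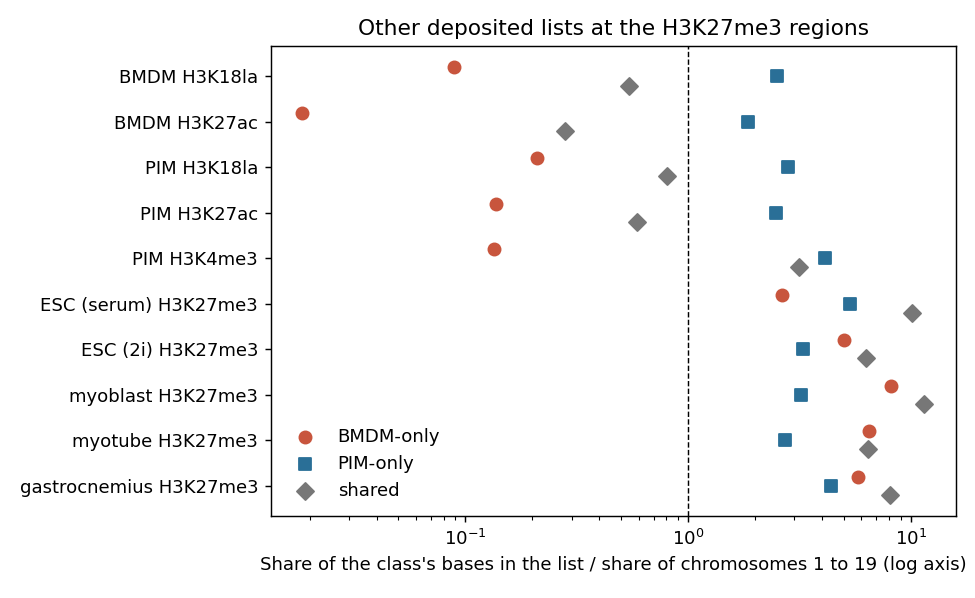
Share of the bases of BMDM-only, PIM-only and shared regions that lay in each other deposited list, divided by that list's share of chromosomes 1 to 19, on a log axis; the dashed line marks a ratio of 1. For the 5 active-mark lists the BMDM-only points lie left of the line, from 0.0185 to 0.211, and the PIM-only points right of it, from 1.86 to 4.12.

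At the level of genes, 3774 of 20807 protein-coding genes (18.1%) had a promoter called in both macrophages, 336 (1.61%) in BMDM only and 1836 (8.82%) in PIM only. These shares are the background for the gene lists that follow. A promoter called in 1 list can lie under a peak that meets the other list elsewhere, as it did for 68 of the 336 BMDM-only genes (20.2%, 16.3 to 24.9) and 184 of the 1836 PIM-only genes (10.0%, 8.73 to 11.5). A CpG island lay at the promoter of 73.8% of the genes called in both, of 68.4% of those called only in PIM and of 13.7% of those called only in BMDM, against 53.6% of the 14861 genes called in neither. Peaks took up a median of 48.2% of the promoter window of BMDM-only genes and 31.8% of that of PIM-only genes. Among genes called in both, the medians were 67.2% in BMDM and 71.2% in PIM. H3K27ac of PIM was present at 51.0% of PIM-only promoters and at 8.04% of BMDM-only promoters, against 59.0% of promoters called in neither. H3K27ac of BMDM was present at 28.5% of PIM-only and 2.98% of BMDM-only promoters, against 43.3% of promoters called in neither. The 5000 largest peaks of each list gave 2637, 358 and 1024 genes in both, in BMDM only and in PIM only.

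**Figure D4:**
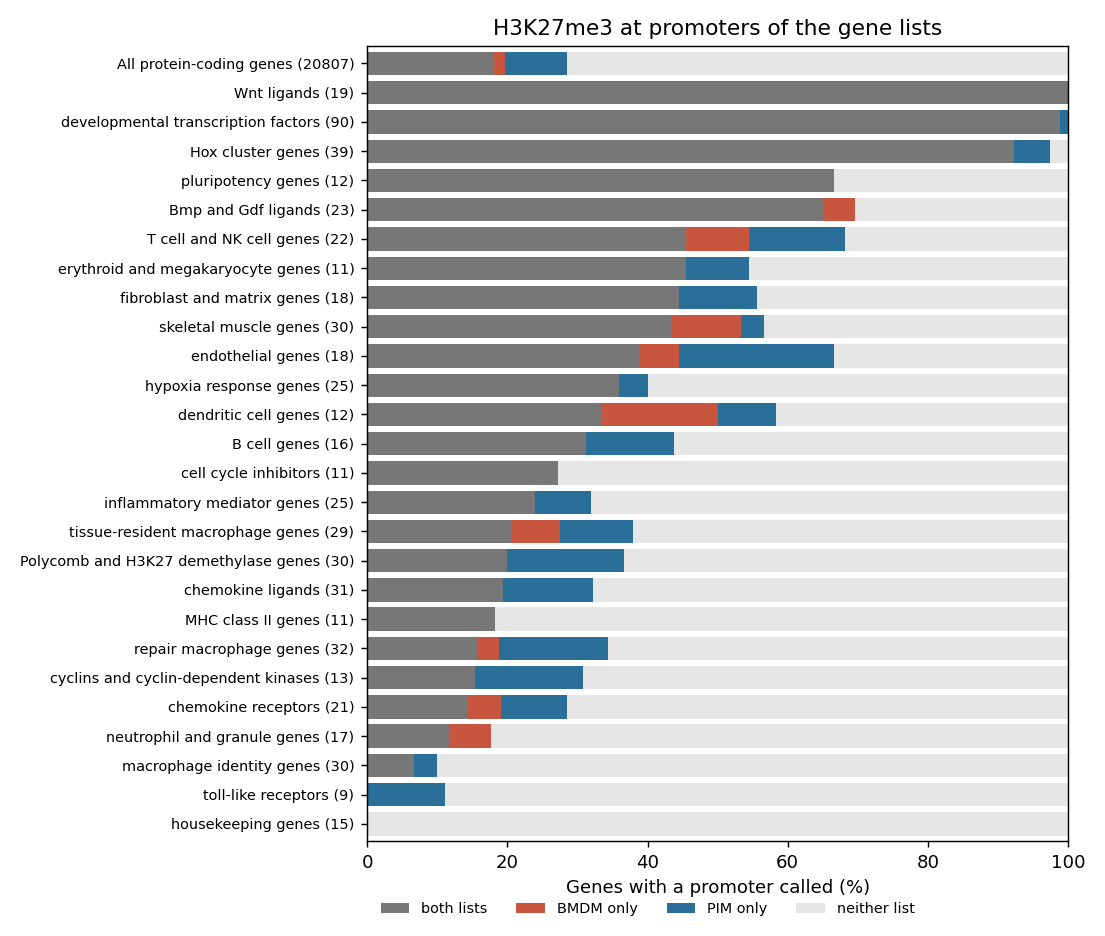
Percentage of the genes of each list whose promoter (2000 bp on each side of a transcript start) met an H3K27me3 peak in both macrophages, in BMDM only, in PIM only or in neither; the number of genes is in brackets and the top bar holds all 20807 protein-coding genes. Wnt ligands, developmental transcription factors and Hox genes are nearly filled by the colour for both, and the 15 housekeeping genes by that for neither.

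Regulators of development carried the mark in both macrophages. All 19 Wnt ligands and 89 of 90 developmental transcription factors were called in both lists, as were 36 of 39 Hox genes, against 18.1% of all genes. The remaining transcription factor, Sox11, met a PIM peak of 2922 bp that took up 70.7% of its window and no BMDM peak. Of 23 Bmp and Gdf ligands 15 were called in both, and Bmp10, a ligand of the heart, only in BMDM. Pluripotency genes were called in both in 8 of 12 cases, with Pou5f1, Nanog, Tfcp2l1 and Prdm14 covered over 100% of the window in each list. None of the 15 housekeeping genes was called in either list (0), and all 15 had H3K27ac in both macrophages.

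The Hox genes differed between the macrophages within the HoxA cluster. HoxC was covered over 100% of its 115726 bp in BMDM and 99.4% in PIM, and HoxD over 97.8% and 98.0%. HoxA was covered over 56.5% in BMDM and 69.6% in PIM, and HoxB (chr11:96194316-96368254) over 73.3% and 63.7%. Hoxa2, a regulator of hindbrain patterning, lay wholly inside a PIM peak of 9157 bp (195566 total signal, percentile 84.2 of the PIM list), and its window met no BMDM peak. Hoxa5 met the edge of a PIM peak of 54564 bp over 19.5% of its window and no BMDM peak, although 98.1% of that PIM peak lay in BMDM peaks. The peak over the posterior genes began at position 52206868 of chromosome 6 in BMDM and at 52205809 in PIM, nearer to Hoxa5, and with windows of 1000 bp on each side Hoxa5 was called in neither list. Hoxb4 alone of the 39 genes was called in neither, and it had H3K27ac in both macrophages.

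**Figure D5:**
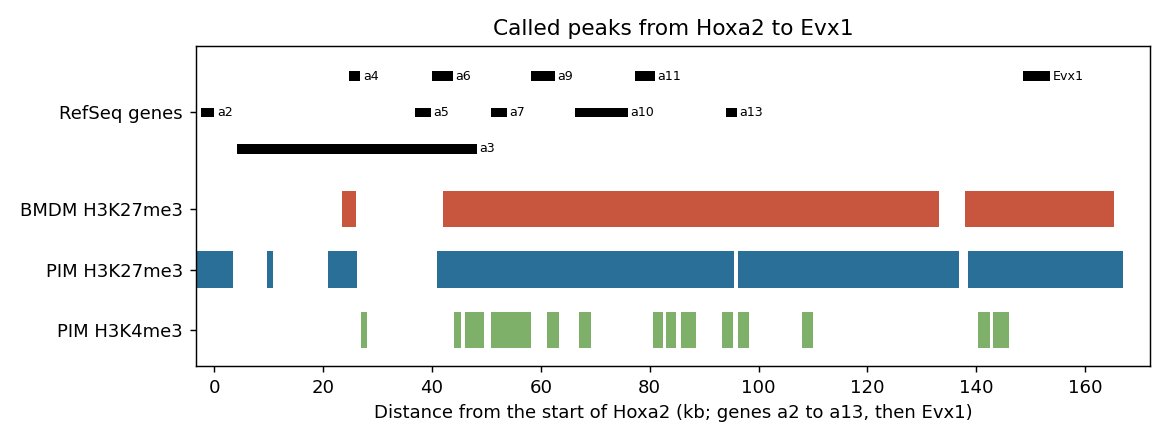
Peaks called from Hoxa2 to Evx1, plotted by distance from the start of Hoxa2 in kb, with RefSeq genes in the top rows (a2 to a13 and Evx1; a3 is drawn over its longest transcript) and 1 row each for BMDM H3K27me3, PIM H3K27me3 and PIM H3K4me3; each bar is 1 called peak, and the first PIM H3K27me3 bar is cut by the left edge. That bar lies over a2, where the BMDM row is empty, and both H3K27me3 rows are filled over most of the stretch from a6 to a13.

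Of 30 macrophage identity genes 27 were called in neither list (71.4% of all genes were), 2 in both and 1, Mertk, only in PIM. Fcgr3, an Fc receptor, was called in both, over 36.8% of its window in BMDM and 36.0% in PIM. Mertk, the receptor by which macrophages take up dying cells, met a PIM peak of 8248 bp over 50% of its window (percentile 71.6). Fcgr3 and Mertk also had H3K18la and H3K27ac peaks in both macrophages within their promoter windows. The windows of a gene took in all its transcript starts. Whether H3K27me3 and the active marks lay at the same start was not tested, for these genes or those below.

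Of 29 genes of macrophages of particular tissues 6 were called in both (20.7%), 2 in BMDM only, 3 in PIM only (10.3%) and 18 in neither, near the shares of all genes for both and for PIM only. Gata6, the regulator of peritoneal macrophages, was called over 100% of its window in both, and Sall1, that of microglia, over 100% in BMDM and 66.5% in PIM. Clec4f was called over 100% of its window in BMDM only, in a peak of 44876 bp with a total signal of 735720 (percentile 96.0). Cd209a, a C-type lectin of dendritic cells and some macrophages, was called over 55.3% in BMDM only, in a peak of 66208 bp (2806894 total signal, percentile 99.8). Only the promoters were exclusive, since PIM peaks covered 37.3% of the Clec4f peak and 78.9% of the Cd209a peak. Neither promoter had an active peak in either macrophage. In PIM only, Id3 was called over 100% of its window in a peak of 18838 bp (412777 total signal, percentile 94.5), and Gas6, a ligand of Mertk, over 100% in a peak of 6168 bp (percentile 71.5). Id3 had all the active marks compared in both macrophages, and Gas6 had H3K4me3 in PIM and no other. Pparg, the regulator of alveolar macrophages, was called in PIM over 5.53% of its window by a peak of 962 bp, whose total signal of 18648 was below the lowest of the BMDM list.

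Of 32 repair macrophage genes 5 were called in PIM only (15.6%, against 8.82% of all genes), 1 in BMDM only and 5 in both. The 5 were Igf1, Thbs1, Mmp14, Chil4 and Pparg. Igf1, the growth factor that macrophages supply to regenerating muscle, was called over 100% of its window in PIM by a peak of 18584 bp with a total signal of 412231 (percentile 94.5), and met no BMDM peak. It also had H3K18la and H3K27ac in both macrophages. Thbs1, a matrix protein, was called in PIM over 33.8% of its window and Mmp14, a membrane protease, over 64.6%, each with all active marks in both macrophages. Chil4, a chitinase-like protein, was called in PIM over 85.6% and had none of the active marks. Fn1, which encodes fibronectin, was called in BMDM only over 14.9% of its window by a peak of 4456 bp (percentile 23.9), and had H3K27ac and H3K18la in PIM and neither in BMDM. The count of 5 for PIM is small. Of the 5, Pparg and Mmp14 were lost when PIM peaks below the lowest BMDM total signal were left out, and Thbs1 as well with the 5000 largest peaks.

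Vegfa and Pdgfc, growth factors of vessels and mesenchyme, were called in both macrophages but over unequal shares of their promoters. Vegfa was called over 16.4% of its window in BMDM and 87.3% in PIM. Pdgfc went from 41.2% in BMDM to 100% in PIM, where its peak was 20105 bp wide against 2701 bp. Runx3, a transcription factor of Langerhans cells, had the opposite order, with 82.9% in BMDM and 17.5% in PIM. Of the 3774 genes called in both, 109 (2.89%) had at least 50 points more of the window called in PIM and 60 (1.59%) at least 50 points more in BMDM, while 936 (24.8%) were called over the whole window in each.

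Of 25 inflammatory mediator genes 6 were called in both, 2 in PIM only (8%, near the 8.82% of all genes) and none in BMDM only (0). Nos2, which makes nitric oxide, was called over 54.3% of its window in BMDM and 57.6% in PIM, and Csf2, a growth factor of myeloid cells, over 100% in each. Ptgs2, the inducible cyclooxygenase, was called in PIM over 36.4% and Acod1, which makes itaconate, over 52.5%. Both rested on PIM peaks below the lowest BMDM total signal (21753 and 16096), and both had active marks in PIM. Of 31 chemokine ligands 6 were called in both (19.4%, near the 18.1% of all genes) and 21 in neither. In PIM only 4 were called (12.9% against 8.82%), which were Ccl8, Cxcl1, Cxcl5 and Cxcl16. The PIM peak at Cxcl1 (24904 total signal) was also below the lowest BMDM value. Cxcl5, which attracts neutrophils, was called over 100% of its window in PIM by a peak of 4129 bp (percentile 58.3). Of 21 chemokine receptors Ccr7, the receptor that guides cells to lymph nodes, was called in BMDM only over 43.4% of its window, and Ccr4 and Ccr10 in PIM only. The peak at Ccr4 (21713 total signal) was below the lowest BMDM value, and the gene was called in neither list with windows of 1000 bp on each side. Of 9 Toll-like receptors Tlr12 alone was called, in PIM over 73.1%. Of 11 MHC class II genes H2-Ab1 and Ciita, the regulator of the class, were called in both.

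Among hypoxia response genes 9 of 25 were called in both lists (36.0%, against 18.1% of all genes). Adm, a vasodilator peptide, was among them, over 100% of its window in each. P4ha2, which hydroxylates collagen, was called over 23.4% of its window in BMDM and 73.6% in PIM. The neighbouring cell cycle inhibitors Cdkn2a and Cdkn2b were called in both, over 75.7% and 81.0% of their windows in BMDM and over 100% in PIM, where a single peak of 50907 bp took in both genes. Ccnd1, the D-type cyclin, was called in PIM only over 60.4% (percentile 68.7) with H3K27ac in PIM and not in BMDM.

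Of 30 genes for Polycomb subunits and H3K27 demethylases 6 were called in both (20%, near the 18.1% of all genes), 5 in PIM only (16.7% against 8.82%) and none in BMDM only (0). Cbx2, Cbx7 and Cbx8, chromodomain proteins that read H3K27me3, were called in both, with 43.2%, 4.89% and 52.2% of the window in BMDM and 89.2%, 34.6% and 51.5% in PIM. Bmi1, a RING-finger subunit of Polycomb repressive complex 1, was called in PIM only over 51.6% of its window by a peak of 4178 bp (116567 total signal, percentile 74.3). Pcgf1, its relative, was called over 13.7%, Phc1 over 30.1%, Phc2 over 10.1% and Kdm2b over 11.8%, in PIM only, and 87.9% of the peak at Pcgf1 lay in BMDM peaks beyond the promoter window. With windows of 1000 bp on each side Pcgf1 was called in neither list. The 5000 largest peaks gave 3 genes of the list in PIM only, where 4.92% of all genes were so called. Bmi1 and Pcgf1 were among them, and Phc1, Phc2 and Kdm2b were then called in neither list. All 5 also had H3K4me3 in PIM.

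Many genes of other lineages were marked in both macrophages, though few of those of neutrophils. Among 30 skeletal muscle genes 13 were called in both (43.3%, against 18.1% of all genes). In BMDM only 3 were called (10.0% against 1.61%) and in PIM only 1 (3.33% against 8.82%). The myogenic factors Myod1, Pax7 and Pax3 were called over 100% of their windows in each list. Myh7, the slow myosin heavy chain, was called in BMDM only over 93.5% of its window by a peak of 14401 bp (195490 total signal, percentile 78.2), as were Mb, which encodes myoglobin, over 26.8% and Pygm, the muscle glycogen phosphorylase, over 16.8%. Mb was called in neither list with the 5000 largest peaks, and Pygm in neither with the starts of protein-coding transcripts only. Myh3, the embryonic myosin, was called in PIM only over 73.3%, by a peak whose total signal (21805) was below the lowest of the BMDM list. No muscle gene of the list had H3K27ac in BMDM (0 of 30), and 3 of 30 had it in PIM.

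Endothelial genes were called in PIM only in 4 of 18 cases (22.2% against 8.82% of all genes) and in both in 7 (38.9% against 18.1%). In BMDM only 1 was called, Robo4 (5.56% against 1.61%), and it was called in neither list with the 5000 largest peaks. The 4 in PIM only were Kdr, Cdh5, Egfl7 and Vwf. Kdr alone of them was still called in PIM only with the 5000 largest peaks, and Vwf was called in neither list under all 4 other settings tried for single genes. Kdr, the receptor for vascular endothelial growth factor, was called over 100% of its window in PIM by a peak of 7374 bp (210397 total signal, percentile 85.6), and had H3K27ac in BMDM and not in PIM. Cdh5, a cadherin of vessels, was called in PIM over 42.7% and had active marks in both macrophages. Of 22 T cell and NK cell genes 10 were called in both (45.5%), 2 in BMDM only (9.09%) and 3 in PIM only (13.6%). These 3 were Cd4, Il2ra and Lck, and all were called in neither list with the starts of protein-coding transcripts only. Ncr1, a receptor of NK cells, was called over 100% of its window in BMDM only, and Gata3, Tbx21 and Eomes over 100% in each. Of 17 neutrophil and granule genes 14 were called in neither (82.4%, against 71.4% of all genes). Gfi1 and Mmp9 were called in both over 100% (11.8% of the list, against 18.1% of all genes). Mpo, the myeloperoxidase of granulocyte precursors, was called in BMDM only over 15.5%. The remaining lists held 8 of 18 fibroblast (44.4%), 5 of 16 B cell (31.2%), 4 of 12 dendritic cell (33.3%) and 5 of 11 erythroid and megakaryocyte genes (45.5%) in both.

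The largest regions of each class were of different kinds. Shared regions were led by the HoxC cluster (chr15:102898792-103074027), 175236 bp wide with total signals of 5640219 in BMDM and 5987295 in PIM, followed by a region at Bcar1 and Ctrb1 and by the widest of all at Chst15 (194657 bp). HoxD with Evx2 and a region at Lhx1 and Aatf were also among the first 10. At Lhx1 the BMDM list held 1 peak over all 170508 bp and the PIM list 4 peaks over 122262 bp. BMDM-only regions were led by a region inside Cacna1i, a calcium channel gene (chr15:80299119-80339169, 884281 total signal, percentile 97.2), and by regions at the promoters of Megf11, a neuronal receptor, and Ano1, a chloride channel. Of these 10 regions 4 met a protein-coding promoter, none met a CpG island (0) and none met an active peak of either macrophage (0).

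PIM-only regions were led by 2 at Sfi1 (chr11:3126920-3148907 and chr11:3152277-3187683) with total signals of 964514 and 1263138. Both met a peak in all 5 active-mark lists and in all 5 H3K27me3 lists of the other cells compared, and no BMDM H3K27me3 peak lay within 541675 bp. The study set aside peaks in blacklisted parts of the genome for its own analysis. Whether that was done before deposit is not given in the sources used here, and no such filter was applied to these regions. Next came a region that met the promoter of Plxna1, a semaphorin receptor, and the body of the gene Chchd6 (chr6:89362714-89411806, 49093 bp, 909642 total signal, percentile 98.5). It was followed by a region inside Tcf7l2, a Wnt effector, and a second region in Chchd6 that met no protein-coding promoter. Then came regions at the gamma protocadherins Pcdhgc3 to Pcdhgc5, Stxbp5 and Dusp4, a MAP kinase phosphatase. Dusp4 was called over 100% of its window and had H3K18la and H3K27ac in both macrophages. All 10 regions met at least 1 active peak of PIM, against 28.2% of the whole class.

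Large peaks at promoters called in 1 list only were also picked out, after their values were seen. In BMDM the largest took in the tryptase genes Tpsb2 and Tpsg1 in a single peak of 90156 bp (2866171 total signal, percentile 99.8), and both windows were covered over 100%, while PIM peaks covered 51.1% of that peak. The keratin genes Krt75 and Krt90 shared a peak of 41749 bp, 11.6% of it in PIM peaks. In PIM the promoters of Jade2 (48.8% of the window, peak of 65772 bp) and Rhoc (65.6%, peak of 21604 bp) stood out, with 37.7% and 47.2% of these peaks in BMDM peaks. Some promoters, such as Ppfia1 with 0.548% of its window, met only the edge of a large peak, 92.7% of which lay in BMDM peaks.

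Few genes exchanged H3K27me3 in one macrophage for H3K27ac in the other. Of the 336 genes called in BMDM only, 19 (5.65%) had H3K27ac in PIM and not in BMDM, among them Fn1, Rasgrp2, an activator of Rap, and Gstp2, a glutathione transferase, whose BMDM peak lay over 70.2% of its length in PIM peaks outside the promoter window. Of the 1836 genes called in PIM only, 13 (0.708%) had H3K27ac in BMDM and not in PIM. They included Kdr, Cd72, a B cell and macrophage receptor, Pltp, a phospholipid transfer protein, and Rhoj, a GTPase of vessels. The same pattern of acetylation in BMDM and not in PIM was found at 0.781% of genes called in neither list, and that in PIM and not in BMDM at 16.5% of them. H3K27ac in both macrophages was found at 27.8% of the genes called in PIM only and at 42.5% of those called in neither.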

How the data were processed

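H3K27me3 was profiled by CUT&Tag. According to the study's methods and the labels, the authors trimmed reads (Trim Galore 0.6.6), aligned them to mm10 (Bowtie2 2.4.4), sorted them (SAMtools 1.13), built coverage (bedtools 2.30) and called peaks with SEACR 1.3 in stringent mode on the top 1% of regions, after combining replicates. Removal of duplicates, and of blacklisted regions before deposit, is not given in the sources used here. The deposited columns hold each peak's total and maximum signal, in whole numbers of fragment coverage that the authors did not scale to depth, so an equally marked site can pass in one list and fail in the other.

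Peaks on chromosomes 1 to 19 of the 2 lists were joined where they shared 1 bp, in Python 3.11.15 (numpy 2.4.6, scipy 1.17.1), and checked against bedtools 2.31.1 and on simulated data. Promoters were 2000 bp on each side of every GENCODE vM21 transcript start (GRCm38, the same assembly as mm10). CpG islands were found on unmasked sequence (over 200 bp, at least 50% GC, observed to expected CpG above 0.6). Shares carry 95% Wilson intervals and their differences Newcombe intervals. No test was made, since each group is 1 list. The members and gene lists were chosen with earlier results of these data known. Named genes are those of the lists, and those at the 10 regions of largest total signal and the 5 widest of each class (shared regions were ordered by the sum of their ranks); others are said to be picked later, and a few are not reported here. Sox3, Vsig4, Cxcl11, Pgk1 and Gata1 had no gene on these chromosomes under that name and were left out. Results were recomputed with other peak sets, overlaps and promoter windows (8 settings, and 2 chosen after seeing the data).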

Additional observations from a re-analysis of the deposited data

Results flagged for a closer look

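Peaks outside chromosomes 1 to 19 were not part of the comparison. On chromosome X the BMDM list held 119 H3K27me3 peaks over 0.407% of the chromosome, and the PIM list 244 peaks over 0.758%, against 3.98% and 4.11% of the autosomes. Of the BMDM peaks there 89.9% met a PIM peak, and of the PIM peaks 44.3% met a BMDM peak. The mitochondrial genome was called as a single peak in each list, with a total signal of 1894913 in BMDM and 1155568 in PIM, or 116 and 70.9 per base. The PIM list also held 1 peak on chromosome Y (chrY:90766416-90771434), with a total signal of 116838, and the BMDM list held none. These signals are listed because they lay in peaks that the comparison did not use. No control list was analysed for them, and their causes were not tested.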

How the results depend on the processing

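Each of 13 results was recomputed under 10 alternatives, of which 2 were chosen after seeing the data. Of the 130 values, 82 stayed within the 95% interval of the value reported or, for gene counts and the Jaccard index, within a ratio of 1.5 or a difference of 0.05, some of them because the setting does not touch that result. The other 48 moved. Only the promoter difference carries a sign and could be scored as reversed, and it was not (0). The order of the exclusive classes did turn, from 21.2% BMDM-only and 38.3% PIM-only regions. It became 26.3% and 23.6% with the 5000 peaks of largest total signal and 26.5% and 23.9% by maximum signal. Without the low PIM peaks it was 33.2% and 23.7%. Within the ratio of 1.5, genes called in both ranged down to 2626 from 3774, and genes called in BMDM only up to 434 from 336. The percentage of regions called in both lists (40.6) was 50.1 with the 5000 peaks of largest total signal, 49.6 with the 5000 of largest maximum signal, 41.6 with the PIM list reduced to the bases of the BMDM list, 39.8 when 0.5 of the shorter peak had to overlap and 45.5 when peaks within 3000 bp were joined. It was 45.3 with exclusive regions at least 5000 bp from the other list and 43.1 without PIM peaks below the lowest BMDM total signal, both added later. The percentage called in PIM only (38.3) was 23.6, 23.9, 34.6, 37.2, 36.2 and 23.7 under these settings, leaving out the stricter overlap, which did not move it. The promoter share of BMDM-only minus PIM-only regions (-16.4 points) was -34.3 and -32.9 with the 5000 largest by total and maximum signal, -19 with equal bases and -27.1 without the low PIM peaks, and kept its sign throughout. The genes called in PIM only (1836) fell to 1024 and 1022 with 5000 peaks by total and maximum signal. Of the 1836 genes, 524 (28.5%) were still called in PIM only with the 5000 peaks of largest total signal and 1372 (74.7%) without the low PIM peaks. Of the 336 genes called in BMDM only, 118 (35.1%) were still so called with 5000 peaks. The other 1312 and 218 genes were then called in neither list. Widths and island shares moved in 29 of the 70 remaining values. Shared regions were the widest and held the most islands under all 10 alternatives, BMDM-only regions had fewer islands than PIM-only regions under all 10, and they were wider than PIM-only regions under 9 of 10, the exception being the list without the low PIM peaks (3915.5 against 4550 bp).

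No paired analysis was possible because the replicates were combined before peaks were called and each group is 1 list. For the same reason no replicate was left out. With signal unscaled and the study's read numbers not used, a region missing from a list was below that list's threshold, which is not an absence of the mark.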
